A study of Mus musculus with 28 samples.

Results

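The endoneurial mesenchymal cell genes examined here were Pdgfra, Sox9, Etv1, Osr2, Abca9, Ccl11 and Cytl1, a list drawn up for the fibroblast-like cells inside the nerve fascicle. The study that reported the data marked these cells by Sox9 and Col2a1. It found Pdgfra in perineurial and epineurial cells as well, and its text does not name the other genes of the list. The listed genes are 7 of the 41605 gene identifiers in the count table and all 7 were among the 17700 genes kept for testing. They were followed through bulk poly-A RNA sequencing of nerves from C57BL/6J mice, not perfused, with 4 libraries at each of 7 stages and 28 in all. The stages are labelled E13 and E17 (embryonic days), P1, P5, P14 and P24 (postnatal days) and P60, the young adult. Each stage had 2 libraries from males and 2 from females, but which is which was not labelled and was not used. Each E13 library held various peripheral nerves from 2 pooled embryos, taken distal to the dorsal root ganglia and not stripped of their sheaths. Each E17 library held sciatic nerves from 2 pooled embryos, and each postnatal library those of 1 mouse. From E17 on the outer sheaths (epineurium and perineurium) were pulled off by hand, so E13 differs from all later stages in tissue and in dissection as well as in age, and these cannot be told apart. Total counts ran from 13899895 to 37662780 per library. Separate animals make up the libraries, and the p-values measure the spread between them.

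A peripheral nerve is built from axons, Schwann cells and connective tissue that is layered into an outer epineurium, a perineurium around each fascicle and an endoneurium within it. Mesenchymal cells of the endoneurium lie between the fibres, lay down collagen and secrete factors, and part of them descends from the neural crest. Pdgfra encodes a receptor for platelet-derived growth factors that is found on mesenchymal cells of all 3 layers, whereas Sox9 is a transcription factor best known from cartilage and neural crest. In a bulk library, fewer cells of a type and less RNA per cell cannot be told apart, and a transcript is not tied to a cell. Levels are CPM, read counts brought to one total after TMM scaling, and are given as mean ± SD over 4 libraries unless single libraries are named. Calls between stages rest on edgeR's quasi-likelihood test and need a fold change of at least 2 together with a Benjamini-Hochberg adjusted p, over all 17700 genes, below 0.05.

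The 7 genes followed very different courses. Ccl11, Osr2 and Abca9 were called higher at E17 than at E13. Osr2 was called higher again at P1, while Cytl1 fell by over an order of magnitude at the same step and then rose between P5 and P14. Pdgfra, Sox9 and Etv1 were not called in any of the 21 pairs of stages. Over the 21 pairs, Cytl1 was called in 17, Osr2 in 10, Ccl11 in 6 and Abca9 in 5. Every pair in which Ccl11 or Abca9 was called included E13. Without the pairs that hold E13, 15 remain, of which 12 were called for Cytl1, 4 for Osr2 and 0 for the other 5 genes.

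**Figure D1:**
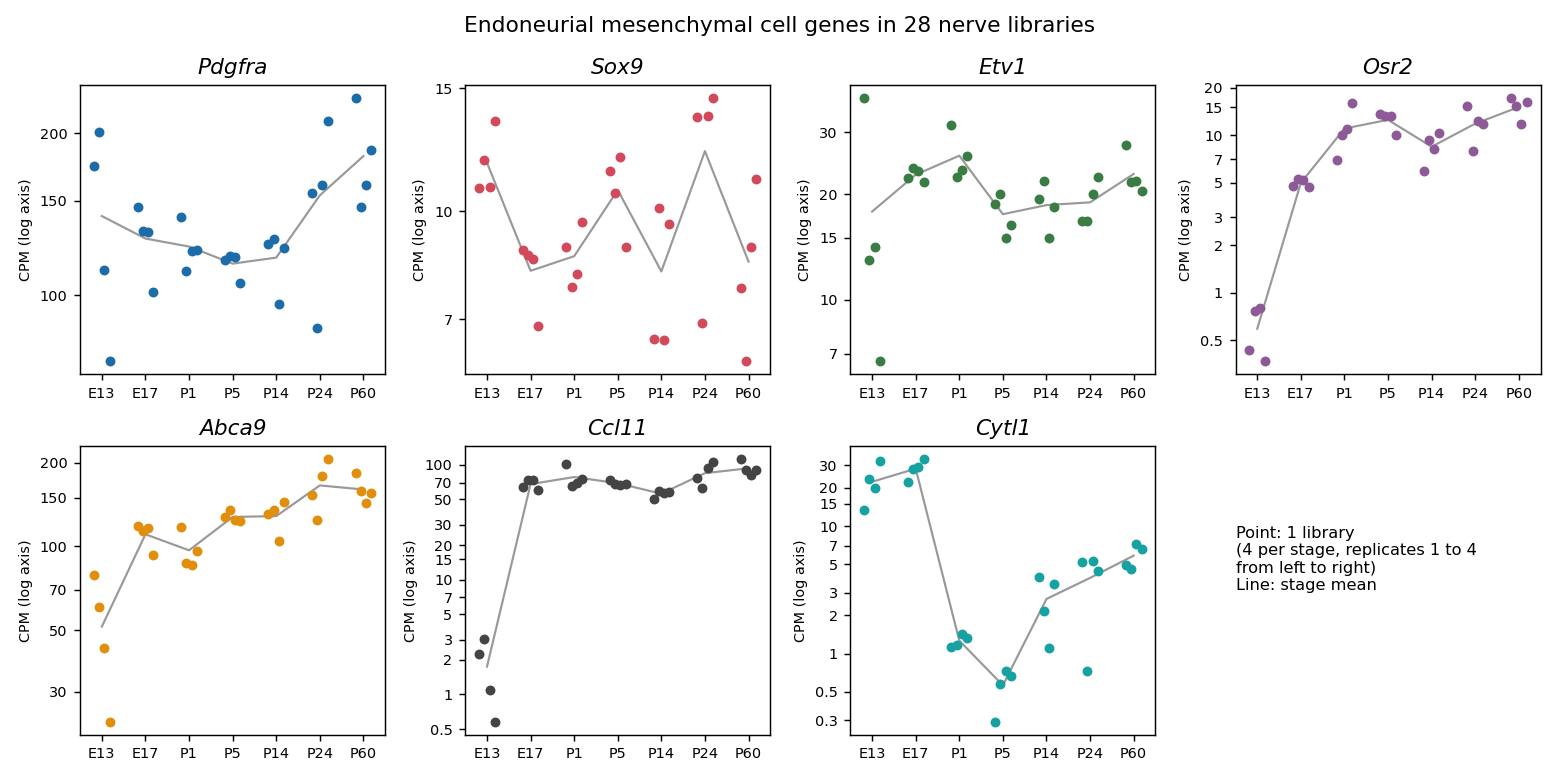
CPM of each gene on a log axis, by stage. Each point is 1 of 4 libraries (replicates 1 to 4 from left to right within a stage) and the line joins the stage means. Ccl11 and Osr2 jump after E13, Cytl1 drops between E17 and P1 and climbs again from P5, and Pdgfra, Sox9 and Etv1, which were not called between any stages, spread most at E13 or P24.

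Any change over the 7 stages was tested in 1 step with all stage terms together, which 88.8% of the tested genes passed at an adjusted p under 0.05. Of the 7 genes, 5 passed. Their adjusted p was 3.37e-14 for Ccl11, 7.83e-13 for Cytl1, 1.18e-12 for Osr2, 2.8e-06 for Abca9 and 0.0182 for Sox9. Pdgfra (adjusted p = 0.0762) and Etv1 (adjusted p = 0.359) did not pass. Both passed once the 4 E13 libraries were left out (adjusted p = 0.0135 and 0.000898), as did the other 5. With all libraries kept, both passed with library size only (adjusted p = 0.00524 and 0.0241), and Pdgfra passed with DESeq2 size factors (adjusted p = 0.0407). Over all alternatives run, the adjusted p of this test went from 0.00164 to 0.261 for Pdgfra and from 4.2e-05 to 0.582 for Etv1.

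The receptor gene Pdgfra lies at chr5:75152292-75198215 on the plus strand (GRCm38, GENCODE M21, as are all gene positions here). It was present in every library. In stage order from E13 to P60, its means were 140 ± 57.3, 128 ± 18.7, 123 ± 11.9, 115 ± 6.16, 118 ± 14.3, 153 ± 51.1 and 182 ± 38.1 CPM. In order of level, P60 came first and P5 last, and no neighbours in that order differed beyond their spread (adjusted p 0.557 to 0.935). The P60 libraries, at 233, 146, 161 and 187 CPM, lay above all 4 P1 libraries, at 139, 111, 121 and 122. That difference was 0.56 ± 0.23 on the log2 scale (adjusted p = 0.0367) and stayed under the fold minimum. At E13 the libraries spread from 75.5 to 201 CPM. A microRNA gene on the same strand, Mir7025, and 2 genes on the opposite strand, Gm42802 and Gm42803, overlap Pdgfra exons, with 599, 2 and 4 counts in all libraries together against 84663 for Pdgfra.

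The PDGF ligands and the sister receptor were measured beside it. Of the 5 genes Pdgfa, Pdgfb, Pdgfc, Pdgfd and Pdgfrb, 2 were called higher and 0 lower at E17 against E13 (14.2% and 21.2% of all tested genes), and 3 higher and 1 lower at P60 against P1 (20.3% and 15.2% of all tested genes). Pdgfa, the ligand that binds PDGFRα, averaged 8.78 CPM at E13 and 70.7 at E17, a log2 difference of 3.01 ± 0.18 (adjusted p = 6.93e-14). Pdgfc, another PDGFRα ligand, stood at 63.2 CPM at P1 and 8.86 at P60, and fell by 2.83 ± 0.13 on the log2 scale (adjusted p = 1.74e-16). Pdgfrb, the receptor of pericytes and other mural cells, rose over the same interval from 97.7 to 204 CPM (1.06 ± 0.13, adjusted p = 9.86e-08).

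Sox9 (chr11:112782224-112787760, plus strand) was a low transcript with a small range. Its stage means lay between 8.19 ± 1.92 CPM (P14) and 12.2 ± 3.55 CPM (P24), and between 84 and 386 counts stood behind each library. For the other stages, in order, the means were 11.7 ± 1.25 (E13), 8.21 ± 0.914 (E17), 8.62 ± 0.83 (P1), 10.7 ± 1.34 (P5) and 8.46 ± 2.11 CPM (P60). The 4 E13 libraries, at 10.8, 11.8, 10.8 and 13.5 CPM, all lay above the 4 E17 libraries, at 8.80, 8.66, 8.54 and 6.85. The difference of -0.51 ± 0.20 on the log2 scale had an adjusted p of 0.0286 but was under the fold minimum. No neighbours in the order of the stage levels differed beyond their spread. P24 stood above E17 by 0.57 ± 0.20 and above P1 by 0.50 ± 0.20 (adjusted p = 0.0166 and 0.0348), both under the fold minimum.

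The other genes of the SoxE family were called at that step. Sox8 and Sox10, a Schwann cell lineage factor, were both called higher at E17, by 1.14 ± 0.22 and 1.47 ± 0.28 on the log2 scale (adjusted p = 7.24e-05 and 6.7e-05). The other transcript with which endoneurial cells are defined, Col2a1 (type II collagen), averaged 166 CPM at E13, 42.4 at E17, 59.2 at P5 and 3.82 at P14. It fell by 1.97 ± 0.27 at E17 and by 3.94 ± 0.31 at P14 (adjusted p = 5.41e-07 and 1.63e-10). Wif1, a secreted Wnt inhibitor listed with these cells, was at 2.40 CPM at E13 and at most 0.362 CPM at any later stage.

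Etv1 (chr12:38779380-38870484, plus strand) encodes an ETS transcription factor of the PEA3 group, which acts downstream of receptor tyrosine kinases. From E17 on its libraries ran from 14.95 to 31.5 CPM, with means, in stage order, of 22.7 ± 0.961, 25.7 ± 4.06, 17.5 ± 2.29, 18.6 ± 2.82, 18.9 ± 2.74 and 22.8 ± 3.22 CPM. At E13 the 4 libraries read 37.6, 13, 14.1 and 6.68 CPM, a spread wider than that between any 2 stage means. Etv1 transcripts have a GC content of 43.8%, and the E13 libraries differ in how counts depend on GC. Counts of E13 replicate 1 moved by -1.02 (log2) per 10% GC against the other libraries of its stage and those of replicate 4 by 0.80, whereas all libraries other than these and P1 replicate 1 (-0.47) lay between -0.18 and 0.22. What part GC has in the E13 spread of Etv1 was not tested. With that trend removed, Etv1 passed the test over all stages (adjusted p = 0.00267), and it did so without E13 replicate 1 (adjusted p = 4.2e-05). Without that library the step from E13 to E17 was 0.996 on the log2 scale (adjusted p = 2.58e-05), just under the fold minimum, and over all alternatives the adjusted p of that step went from 2.58e-05 to 0.837. In a fit without E13, the step from P1 to P5 was -0.58 on the log2 scale (adjusted p = 0.000801, the lowest of a range up to 0.418), under the fold minimum. Of the 50-base stretches of Etv1 transcripts, 9.05% also occur in other genes, mostly in Gm5454, which is not among the gene identifiers counted. How reads from these stretches were counted is not given in the sources used here.

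The PEA3-group relatives Etv4 and Etv5 did move. Of the 6 genes Etv4, Etv5, Spry1, Spry2, Spry4 and Dusp6, which respond to growth-factor signalling through ERK, 0 were called higher and 3 lower at P60 against P1, where 20.3% of all tested genes were called higher and 15.2% lower. At E17 against E13, 2 of the 6 were called higher and 0 lower (14.2% and 21.2% of all tested genes). Etv5 averaged 67 CPM at P1, 29.8 at P5 and 14.6 at P14, and fell by 1.17 ± 0.15 and then by 1.03 ± 0.15 on the log2 scale (adjusted p = 1.93e-06 and 7.16e-06). Dusp6, a phosphatase that inactivates ERK, fell by 2.13 ± 0.13 from P1 to P60 (adjusted p = 4.47e-14).

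Osr2 (chr15:35296098-35303305, plus strand), an odd-skipped zinc-finger factor of palate, tooth and limb mesenchyme, had few reads at E13 and rose in 2 steps. The E13 libraries held 0.431, 0.767, 0.794 and 0.368 CPM, from 7 to 22 counts each. The E17 libraries held 4.73, 5.28, 5.16 and 4.71 CPM, and the P1 libraries 6.96, 9.99, 10.97 and 16.1. The groups did not overlap at either step. The rise at E17 was 3.05 ± 0.28 on the log2 scale, or 8.27-fold (adjusted p = 4.38e-10), and the rise at P1 was 1.15 ± 0.23, or 2.21-fold (adjusted p = 0.000364). Without P1 replicate 4, the highest library, the second rise was 0.90 (adjusted p = 0.00353, the highest of a range from 4.9e-07) and was no longer called. Later means, from P5 to P60 in stage order, were 12.5 ± 1.69, 8.44 ± 1.88, 11.8 ± 3.01 and 15.1 ± 2.38 CPM. In order of level, neighbours from P60 down to P14 did not differ beyond their spread, and only E17 and E13 stood below the next stage up (adjusted p = 0.00665 and 4.38e-10). P60 nevertheless stood above P14 by 0.83 ± 0.23 on the log2 scale (adjusted p = 0.0058), under the fold minimum. Its sister gene Osr1, a factor of early connective tissue, went the other way at the first step, from 13.7 CPM at E13 to 2.61 at E17, and fell by 2.39 ± 0.41 (adjusted p = 1.58e-05).

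Abca9 (chr11:110100749-110168196, minus strand) encodes a membrane transporter of ABC subfamily A. Its libraries read 79.1, 60.5, 43.0 and 23.4 CPM at E13 and 119, 114, 117 and 93.3 at E17, without overlap. The rise was 1.10 ± 0.22 on the log2 scale, or 2.14-fold (adjusted p = 9.07e-05). Abca9 transcripts have a GC content of 43.3%, near that of Etv1. Ccl11 has the lowest of the 7 genes (42.3%). Its E13 libraries hold only 11 to 76 counts, with the highest value in replicate 2. The part of GC in the spread between E13 libraries was not tested. With the GC trend removed the rise was 1.21 (adjusted p = 5.44e-09), and without E13 replicate 4 it was 0.86 (adjusted p = 0.000102), under the fold minimum. With library size only it was 0.84 (adjusted p = 0.00255), also under the fold minimum. The adjusted p of this rise went from 2.47e-09 to 0.0188 over all alternatives. From P1 to P60 the means were, in stage order, 96.9 ± 14.7, 128 ± 5.26, 129 ± 17, 166 ± 35 and 160 ± 17.2 CPM. The P60 libraries, from 143 to 184 CPM, lay above the P1 libraries, from 85.8 to 118, a difference of 0.73 ± 0.22 (adjusted p = 0.00493) that was under the fold minimum.

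Abca9 stands in a row of 5 genes on chromosome 11, with Abca8b and Abca8a on 1 side and Abca6 and Abca5 on the other. Of the 4 neighbours, 3 were called higher at E17 against E13 and 0 lower (14.2% and 21.2% of all tested genes), with a median log2 difference of 3.84 beside -0.08 over all tested genes. Abca8a went from 21 to 853 CPM (5.34 ± 0.27, adjusted p = 3.31e-15) and Abca8b from 35.9 to 620 (4.11 ± 0.27, adjusted p = 7.65e-13). Abca6 rose by 3.58 ± 0.32 at E17 (adjusted p = 1.87e-10) and was higher again at P60 than at P1, at 205 against 32.7 CPM (2.65 ± 0.29, adjusted p = 9.48e-09). Per kilobase of exon, Abca9 had the highest mean of the 5 at E13 only, at 6.40 CPM per kb, and at E17 it read 13.8 CPM per kb. Of the 50-base stretches of Abca9, 0.162% are shared with Abca6, so reads of this gene are nearly all its own.

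**Figure D2:**
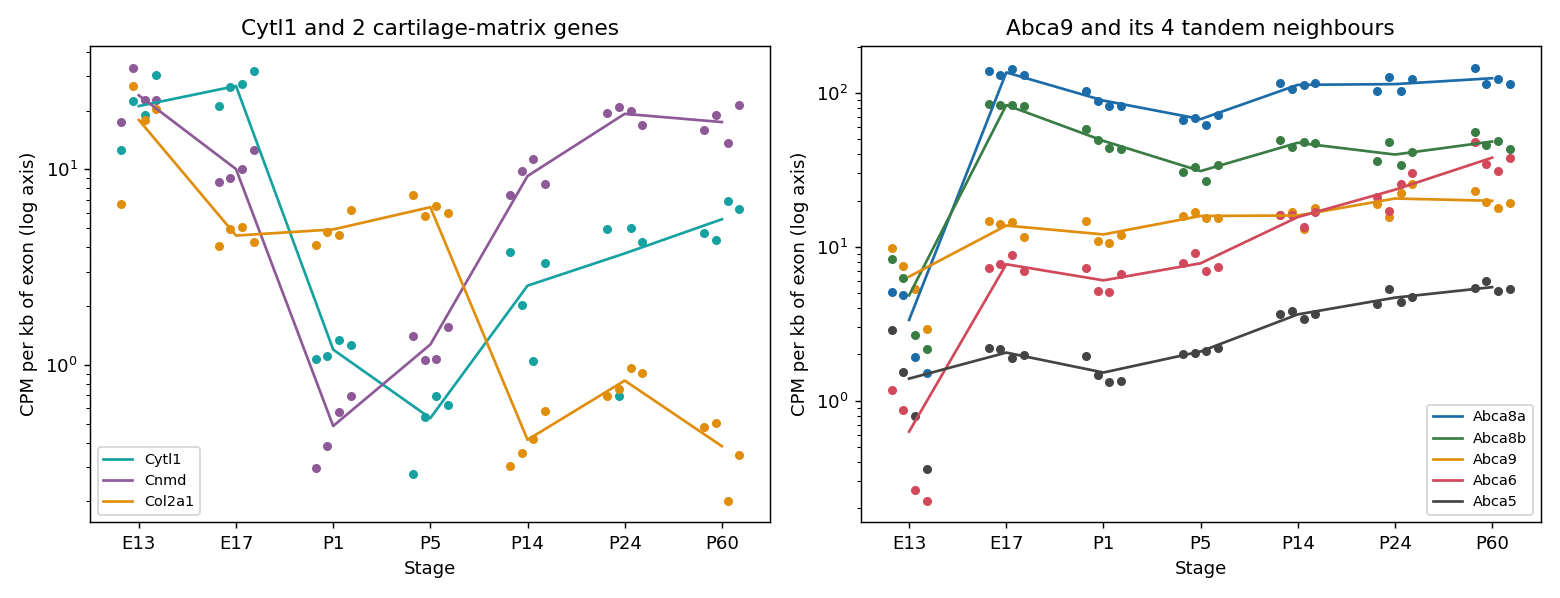
Levels in CPM per kilobase of exon on a log axis, by stage, with 1 point per library and lines through the stage means. Left, Cytl1 with Cnmd and Col2a1, where Cytl1 and Cnmd both drop at P1, Cnmd rises from P1 to P24 and Cytl1 from P5 on, and Col2a1 drops at P14. Right, Abca9 with its 4 neighbours on chromosome 11, where Abca8a and Abca8b rise most at E17.

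Ccl11 (chr11:82057823-82062955, plus strand) encodes eotaxin-1, a chemokine that attracts eosinophils through the receptor CCR3. Its change between E13 and E17 was the largest of the 7 genes. The E13 libraries held 2.25, 3.07, 1.08 and 0.579 CPM (11 to 76 counts), and the E17 libraries 64.3, 73.9, 73.5 and 59.8. The rise was 5.25 ± 0.28 on the log2 scale, or 38-fold (adjusted p = 7.13e-15). From then on the means moved between 56 ± 3.71 CPM at P14 and 93.2 ± 13.5 at P60, with 78.2 ± 16.6 at P1, 69 ± 3.14 at P5 and 84.5 ± 18.5 at P24. No pair of stages from E17 on was called, although P60 stood above P14 by 0.73 ± 0.22 on the log2 scale (adjusted p = 0.0123). Per kilobase of exon, Ccl11 was the highest of the 7 genes at every stage from E17 on, at 62.7 CPM per kb at E17 and 86.1 at P60, and Sox9 and Etv1 stayed below 3 CPM per kb in every stage mean.

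Ccl11 sits in a tandem group with Ccl2, Ccl7, Ccl12 and Ccl8. None of these reached 7 CPM in any stage mean. Of the 5 related chemokine genes listed (these 4 and Ccl24, a second eotaxin), 4 were tested, of which 2 were called higher and 1 lower at E17 against E13 (14.2% and 21.2% of all tested genes). Ccl2 and Ccl7, attractants of monocytes, rose by 1.27 ± 0.29 and 1.97 ± 0.38 at that step (adjusted p = 0.000419 and 6.15e-05). They fell at P14 by 1.69 ± 0.30 and 1.40 ± 0.39 and rose at P24 by 1.76 ± 0.31 and 1.73 ± 0.39, steps at which Ccl11 was not called. Ccl24 went the other way from Ccl11, from 6.19 CPM at E13 to 0.119 at E17 (-5.56 ± 0.59, adjusted p = 5.61e-09). Of 5 eosinophil genes (Ccr3, Siglecf, Epx, Prg2 and Il5ra), 2 passed the filter on low counts, and they moved in opposite directions at E17. Siglecf, a surface lectin of eosinophils, averaged 0.530 CPM at E13, 2.33 at E17 and 3.30 at P1, and its rise at E17 was 2.10 ± 0.45 on the log2 scale (adjusted p = 0.000242). Prg2, which encodes eosinophil major basic protein, averaged 5.73 CPM at E13, was at 0 in all 4 E17 libraries and was called lower (adjusted p = 2.11e-07). The receptor gene Ccr3 had at most 0.494 CPM in any stage mean and Epx at most 0.685, and neither was tested.

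Cytl1 (chr5:37735519-37739820, plus strand) encodes a small secreted protein best known from cartilage. It had the only fall among the 7 genes that was called between adjacent stages. Its libraries held 13.3, 23.6, 20 and 32.3 CPM at E13 and 22.2, 27.99, 28.98 and 33.7 at E17, which overlap (0.34 ± 0.35, adjusted p = 0.398). At P1 they held 1.13, 1.17, 1.42 and 1.33 CPM, a fall of 4.47 ± 0.42 on the log2 scale, or 22.2-fold (adjusted p = 2.54e-09). Some markers of other cells were called lower at that step too. The summed skeletal muscle genes went from 1.94 to 7.23 CPM in the E17 libraries to 0.155 to 0.875 in the P1 libraries, with 2 of 4 called lower (Acta1 and Ckm, with log2 differences of -3.56 and -3.38), and the summed sensory neuron genes from 319 to 341 CPM to 163 to 194, with 2 of 7 called lower. Most of the neuron sums was Ntrk3, whose means of 316 CPM at E17 and 170 at P1 differ by less than the fold minimum. The endothelial genes summed to between 180 and 220 CPM at E17 and between 104 and 126 at P1, with 0 of 3 called. Of the sheath markers, 2 of 6 epineurial and 1 of 5 perineurial genes were called lower. Their part in the fall of Cytl1 was not tested. The P5 libraries held 0.292, 0.573, 0.727 and 0.661 CPM, from 7 to 20 counts each, all below the P1 libraries. That second step was -1.16 ± 0.47 (adjusted p = 0.0899) and was not called here, although the DESeq2 Wald test called it at -1.175. The adjusted p of that step went from 0.011 to 0.23 over the alternatives.

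Cytl1 then came back in part. The P14 libraries held 3.99, 2.15, 1.10 and 3.49 CPM, all above P5, a rise of 2.24 ± 0.45 or 4.71-fold (adjusted p = 0.000369). Markers of the nerve sheaths were higher at the same step. The summed perineurial genes went from 174.5 to 220 CPM in the P5 libraries to 470.5 to 580 in the P14 libraries, with 4 of 5 called higher, and the summed epineurial genes from 19.9 to 37.3 CPM to 83.5 to 117, with 5 of 6 called higher. The adipocyte genes summed to between 0.0287 and 8.39 CPM at P5 and between 1.33 and 39.2 at P14, which overlap, with 1 of 3 called higher. The pericyte sums were also apart (273 to 280 CPM at P5 and 404 to 434 at P14, 0 of 3 called). So were the Schwann cell sums (4085 to 4462 and 4746 to 4926 CPM, 1 of 5 called higher). Endothelial sums and those of 7 general mesenchymal genes such as Dcn and Col1a1 overlapped, with 1 of 3 and 0 of 7 called higher. The 2 proliferation genes were called lower. The part of these lists in the rise of Cytl1 was not tested. At P24 Cytl1 read 5.20, 0.732, 5.29 and 4.48, and at P60 4.97, 4.57, 7.28 and 6.66. P60 was higher than P1 by 2.21 ± 0.41, or 4.63-fold (adjusted p = 3.3e-05), and lower than E17 by 2.26 ± 0.37 on the log2 scale, or 4.79-fold (adjusted p = 6.79e-06). In order of level, E17 and E13 did not differ beyond their spread, and E13 stood above P60 by 1.92 ± 0.37 (adjusted p = 4.31e-05). Neither P60 and P24 nor P24 and P14 differed beyond their spread, although P60 stood above P14 by 1.13 ± 0.39 (adjusted p = 0.0266).

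A cartilage list of 14 genes was set beside Cytl1 and Sox9, of which 12 were tested. At P1 against E17, 0 were called higher and 3 lower (6.31% and 5.41% of all tested genes), with a median of -0.45 beside 0 over all tested genes. One of the 3 was Cnmd, which encodes chondromodulin, an inhibitor of vessel growth in cartilage. From E13 to P60, in stage order, its means were 44.1, 18.5, 0.896, 2.34, 17.1, 35.5 and 32.2 CPM. It fell by 4.34 ± 0.25 on the log2 scale at P1 (adjusted p = 9.65e-14) and rose by 1.36 ± 0.25 at P5 and by 2.86 ± 0.22 at P14 (adjusted p = 0.000253 and 1.46e-10). Cnmd was thus called higher at the step that brought Cytl1 to its lowest mean. Across the 28 libraries, the log2 CPM of Cytl1 and Cnmd had a Pearson r of 0.663, a description over libraries that share their stages. Col2a1 did not share the fall at P1 (42.4 CPM at E17 and 45.6 at P1), and Sox9, a regulator of cartilage genes, read 8.21 and 8.62.

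Because Cytl1 and Cnmd dropped together at P1, the 250 bases before the RefSeq start of each are shown (GRCm38.p6), with every CpG dinucleotide in capitals. The window of Cytl1 is chr5:37735269-37735518 on the plus strand and that of Cnmd chr14:79662184-79662433 on the minus strand, each printed 5′ to 3′ in the direction of the gene.
Cytl1: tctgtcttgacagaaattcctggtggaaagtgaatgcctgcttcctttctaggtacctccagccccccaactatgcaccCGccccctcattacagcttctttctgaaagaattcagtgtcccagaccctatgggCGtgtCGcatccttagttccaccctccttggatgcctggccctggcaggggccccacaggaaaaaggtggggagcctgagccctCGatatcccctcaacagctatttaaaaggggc
Cnmd: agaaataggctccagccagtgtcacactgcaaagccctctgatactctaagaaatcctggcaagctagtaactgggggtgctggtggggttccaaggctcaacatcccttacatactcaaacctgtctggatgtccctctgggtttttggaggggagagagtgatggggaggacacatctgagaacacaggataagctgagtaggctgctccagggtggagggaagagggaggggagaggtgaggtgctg
The Cytl1 window holds 4 CpG dinucleotides and the Cnmd window 0, against a median of 6 over 32851 such windows. Neither holds TATAAA (12.4% of windows do), ACGTG (16.6%) or ACAAT (27.7%) on either strand, which says only that these letters are not in these windows. Promoter entries were at hand for 4 of the 7 genes, and not for Sox9, Osr2 and Ccl11.

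Between adjacent stages, the genes counted as follows. At E17 against E13, 3 of 7 were called, all higher, where 14.2% of all tested genes were called higher and 21.2% lower. The median log2 difference of the 7 was 0.34 beside -0.08 over all tested genes. Markers of other cells differed widely at this step. Summed over 5 Schwann markers the libraries ran from 298 to 605 CPM at E13 and from 2404 to 2602 at E17, and over 7 mesenchymal genes (Cd34, Dcn, Lum, Col1a1, Col1a2, Col3a1 and Col6a1) from 2050 to 3743 and from 23000 to 25500. All 7 of these mesenchymal genes were called higher. Over 4 muscle genes the range was 6.43 to 157 CPM at E13 against 1.94 to 7.23 at E17, and Ckm was the 1 muscle gene called higher, with 3 called lower. Over 7 sensory neuron genes it was 353 to 493 CPM against 319 to 341, with 6 called lower (Isl1 averaged 67.2 CPM at E13 and 0.756 at E17) and 1, Ntrk3, called higher. The perineurial sheath genes summed to 39.8 to 74.3 CPM at E13 and 245 to 284 at E17, with 2 of 5 called higher (Itgb4 and Cldn1), while the epineurial sums overlapped (17.7 to 27.8 and 13.9 to 26.1 CPM), with 2 of 6 called higher. The immune genes summed to 98.9 to 203 CPM at E13 and 55.7 to 63.3 at E17, with 2 of 3 called lower (Csf1r and Cd68). Endothelial genes (109 to 149.5 and 180 to 220 CPM, 1 of 3 called higher), pericyte genes (102 to 112.5 and 123 to 151 CPM, 0 of 3 called) and proliferation genes (168 to 379 and 1727 to 1806 CPM, 2 of 2 called higher) were also apart in their sums. Their part in the differences of Ccl11, Osr2 and Abca9 was not tested.

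At P1 against E17, 2 of 7 were called, 1 higher and 1 lower, where 6.31% of all tested genes were called higher and 5.41% lower. At P5 against P1, 0 of 7 were called by edgeR and by limma, 1 was called by DESeq2, and 1 had an unadjusted p under 0.05, where 5.84% of all tested genes were called (4.05% higher and 1.79% lower) and 29.1% had an unadjusted p under 0.05. At P14 against P5, 1 of 7 was called higher (7.11% of all tested genes) and 0 lower (4.91%).

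At P24 against P14, 0 of 7 were called by edgeR, limma or DESeq2, and 3 had an unadjusted p under 0.05 in edgeR (2.65% of all tested genes were called, 1.51% higher and 1.14% lower, and 16.3% had an unadjusted p under 0.05). Those 3 were Sox9, Osr2 and Ccl11, each 0.48 to 0.59 higher on the log2 scale, and the median of the 7 was 0.48 beside -0.005 over all tested genes. At P60 against P24, 0 were called by any of these tools and 1, Sox9, had an unadjusted p under 0.05 (5.96% of all tested genes were called, with 2.55% higher and 3.41% lower, and 27.7% had an unadjusted p under 0.05). Between P1 and P60, 1 of 7 was called, Cytl1, which was higher, against 20.3% of all tested genes called higher and 15.2% lower. The comparisons that share a stage share its 4 libraries.

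**Figure D3:**
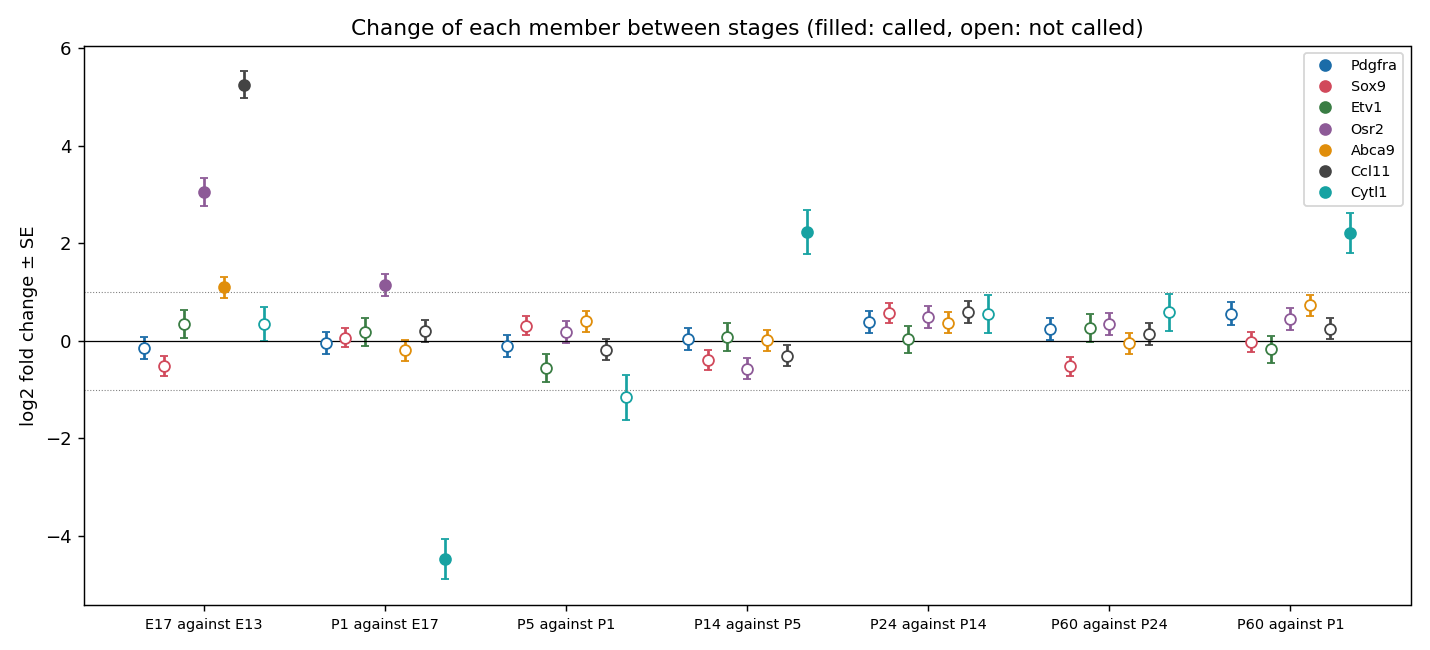
Log2 fold change ± SE of each gene in the 6 pairs of adjacent stages and in P60 against P1, from the edgeR fit over 28 libraries. Filled points were called (adjusted p under 0.05 and at least 2-fold, dotted lines), open points were not, and 7 of the 49 points are filled.

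One library was low for most of these genes. P24 replicate 2 was the lowest of its stage for 6 of the 7 genes. For how many of all tested genes it was the lowest was not counted, so the 6 cannot be set against a share. It held 87 CPM of Pdgfra against 155 to 211 in the other 3, 6.90 of Sox9 against 13.6 to 14.5, 7.95 of Osr2 against 11.8 to 15.3, and 0.732 of Cytl1 against 4.48 to 5.29. Abca9 (125 against 153 to 207 CPM) and Ccl11 (63 against 76.6 to 105) were nearer the others, and Etv1 (16.7 against 16.7 to 22.3) lay within them. Without this library, Sox9 at P24 was 0.77 higher than at P14 (adjusted p = 0.00862) and 0.72 higher than at P60 (-0.72 for P60 against P24, adjusted p = 0.00732), both under the fold minimum, in ranges over the alternatives of 0.00141 to 0.299 and 0.0017 to 0.245. Without it Pdgfra passed the test over all stages (adjusted p = 0.015).

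The same library was lowest for 6 of 6 epineurial, 5 of 5 perineurial, 7 of 7 general mesenchymal and 3 of 3 adipocyte genes, and for 0 of 5 Schwann cell genes. Of these markers only Sfrp2, an epineurial gene, was at 0 in it, against 2.13 to 9.58 CPM in the other 3. Its epineurial genes summed to 82.2 CPM against 149 to 196, its perineurial genes to 526 against 818 to 843 and its adipocyte genes to 5.02 against 106 to 208, while its Schwann cell genes summed to 4694 against 3534 to 3903. It was also lowest for the summed endothelial genes (143.8 against 224 to 249 CPM), immune genes (65.5 against 98.5 to 107.7) and pericyte genes (340.6 against 366.9 to 393.5). What part these cells have in the low values of the 7 genes was not tested.

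**Figure D4:**
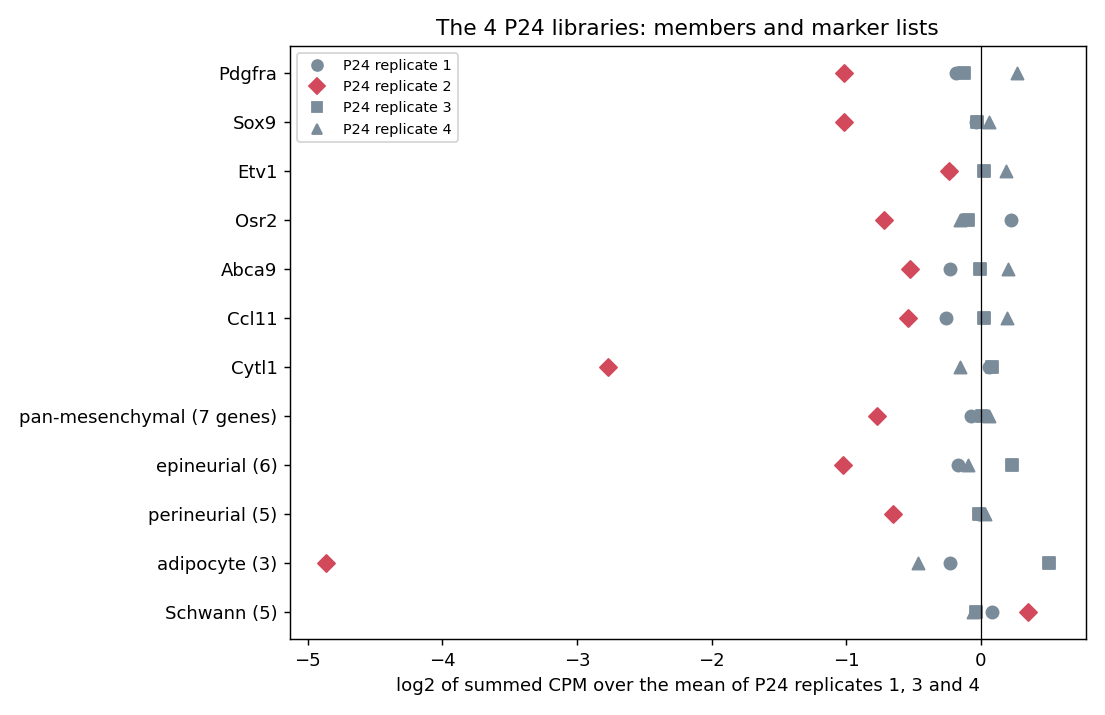
The 4 P24 libraries, for the 7 genes and for the summed CPM of 5 marker lists, as the log2 ratio to the mean of replicates 1, 3 and 4 (vertical line at 0). Replicate 2 (red diamonds) lies to the left for 6 of the 7 genes beyond the range of the other libraries and for all lists but the Schwann cell genes, where it lies to the right.

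Pdgfra is shared by endoneurial, perineurial and epineurial cells, so each other gene was also set against Pdgfra within a library, as the log2 ratio of CPM (0.5 CPM added to both). From P1 to P60 the summed perineurial genes went from 150 to 228 CPM in the P1 libraries to 1008 to 1459 in the P60 libraries, with 5 of 5 called higher, and the summed epineurial genes from 6.75 to 23 CPM to 129 to 169, with 5 of 6 called higher. The general mesenchymal genes summed to between 17190 and 24830 CPM at P1 and between 6806 and 9260 at P60, with 4 of 7 called lower and 2 higher. Endothelial, pericyte and adipocyte sums were higher at P60 without overlap, with 2 of 3, 2 of 3 and 3 of 3 called higher. Against Pdgfra, Etv1 was lower at P60 by 0.71 (mean log2 ratio -2.95 against -2.24) and Sox9 by 0.59 (-4.35 against -3.76), and Cytl1 was higher by 1.29 (-4.84 against -6.13). For these 3 the P1 and P60 libraries did not overlap, and the two-sided exact permutation test gave p = 0.0286, the smallest possible with 4 against 4. Adjusted over the 6 genes this was 0.0571, so none passed. Over the 17699 tested genes other than Pdgfra, the P1 and P60 libraries did not overlap in this ratio for 58.3%, with 45.3% lower at P60 and 13% higher. In CPM, Pdgfra itself was 0.56 higher at P60 on the log2 scale, while Sox9 differed by -0.02 and Etv1 by -0.17, and none of these differences was called, so a gene whose level stays near the same reads lower against Pdgfra. The other differences in the ratio were -0.28 for Ccl11 (exact permutation p = 0.0857), 0.19 for Abca9 (0.171) and -0.06 for Osr2 (0.886). Cytl1 held only 1.13 to 1.42 CPM in the P1 libraries, so the added 0.5 CPM makes its difference in the ratio smaller.

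Among themselves the 7 genes did not move as 1 group. Over the 28 libraries, the log2 CPM of Ccl11 and Osr2 had a Pearson r of 0.936, Ccl11 and Abca9 0.873 and Osr2 and Abca9 0.825, and these 3 share the low level at E13. Over the 24 libraries from E17 on, these values were 0.469, 0.572 and 0.442, and the highest were 0.784 for Pdgfra and Ccl11 and 0.733 for Pdgfra and Abca9. Sox9 reached 0.473 at most there (with Abca9). The libraries share stages, so these values describe the courses and carry no test.

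Among 12513 protein-coding genes with a stage mean of at least 5 CPM, those whose courses over 28 libraries were most like each gene were as follows. For Ccl11 they were Atp8b1 (r = 0.981), Megf9 (0.978) and Abca8a (0.978), for Abca9 Naalad2 (0.978), Lrp6 (0.959) and Mndal (0.951), and for Osr2 Plpp3 (0.969), Ano6 (0.969) and Nceh1 (0.959). For Cytl1 they were Hes1 (0.901), Pfkfb3 (0.898) and Phf13 (0.886). Etv1 was most like Atf2 (0.925), Zfp655 (0.909) and Usp15 (0.903), and Pdgfra most like Tcf4 (0.817), Tenm2 (0.803) and Arhgef6 (0.801). Sox9 had the weakest best matches, Tmem119 (0.684), Nfam1 (0.676) and Tbxas1 (0.661). Over the 24 libraries from E17 on, Naalad2 stayed first for Abca9 (0.932), while the first match became Cped1 for Pdgfra (0.914), P4ha2 for Cytl1 (0.943), Ptch1 for Ccl11 (0.793), Mnt for Osr2 (0.902), Cc2d2a for Etv1 (0.856) and Lrrc32 for Sox9 (0.70). Naalad2, a peptidase gene, averaged 2.32 CPM at E13, 12.7 at E17 and 33.1 at P60, and Hes1, a Notch target, 16.2 at E17, 6.62 at P1, 3.78 at P5 and 7.86 at P60.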

How the data were processed

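Bulk RNA of mouse nerves was measured in 28 libraries of 7 stages. The authors prepared stranded poly-A libraries (TruSeq), sequenced single ends on a HiSeq4000, trimmed adapters, aligned with STAR (2.6.1c per the submitters' processing notes) and counted with featureCounts. The deposited values are raw counts of reads per gene, not normalized by the authors. Methods and labels name different genome builds (the labels GRCm38.p5), the identifiers are mouse ones, and strand setting and multi-mapped reads are not given in the sources used here. Symbols, positions, lengths and GC came from GENCODE M21 (41519 of 41605 identifiers matched). Promoters came from RefSeq (GRCm38.p6).

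Genes passing filterByExpr (17700) were TMM-scaled and fitted together in edgeR 4.0.16 (R 4.3.3) with stage as the only term. The SE is the log2 fold change over the square root of F. At these totals (13899895 to 37662780 counts), genes of a few counts are limited by depth. The fit was also run on simulated counts, and the outcome is not given here. The 7 genes and the lists were chosen with earlier results of these data known. Further named genes were list genes and, for each of the 7, the 3 best-correlated protein-coding genes (log2 CPM, prior count 2). Alternatives were limma-voom (3.58.1), the Wald test and the size factors of DESeq2 (1.42.0), no scaling beyond library size, 2 other filters, fewer stages, a replicate block, no fold minimum, GC trend removal, and libraries left out.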

Additional observations from a re-analysis of the deposited data

Results flagged for a closer look

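Of the 49 groups of 4 libraries (7 genes at 7 stages), 5 held a library far from the other 3, with a gap to the nearest of them, as a share of the group's range, above the 95% critical value of Dixon's test, where chance gives about 1 in 20 groups, or 2.45. Sox9 in P24 replicate 2 was 6.90 CPM against 13.6 to 14.5, in the library that was the lowest of its stage for 6 of the 7 genes. Sox9 in E17 replicate 4 was 6.85 CPM against 8.54 to 8.80. Pdgfra was 105 CPM in P5 replicate 4 against 117 to 118, and 96.3 CPM in P14 replicate 3 against 122 to 127. Osr2 in P5 replicate 4 was 9.99 CPM against 13.2 to 13.6. In each case the library apart was the lowest of its group.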

How the results depend on the processing

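Of the 49 gene-by-comparison results, 7 were called and 5 of these were called under every alternative. The exceptions were Abca9 at E17 against E13, which was 0.84 on the log2 scale with library size only and 0.86 without E13 replicate 4, and Osr2 at P1 against E17, which was 0.90 without P1 replicate 4. Of the 42 results not called, 38 were never called. Cytl1 at P5 against P1 was called with library size only (-1.36), with only the 2 stages compared (-1.15), with the DESeq2 Wald test (-1.175) and, in a setting chosen after seeing the data, without E13 replicates 1 and 4, P1 replicate 1 and P24 replicate 2 (-1.19), each of which gave 1 gene called at that step in place of 0. With no fold minimum, Sox9 at E17 against E13 and Pdgfra and Abca9 at P60 against P1 were called, which gave 4 and 3 genes. Leaving out 1 library gave 2 to 3 genes called at E17 against E13, 1 to 2 at P1 against E17 and 5 to 7 in the test over all stages, and no other alternative gave fewer than 5 there. Library size only moved the median of all genes by up to 0.25 (from -0.08 to -0.33 at E17 against E13). No called result changed direction. Results near 0 that were not called did. With library size only these were Sox9 at P1 against E17 (-0.05), Osr2 at P5 against P1 (-0.011), Pdgfra (-0.136), Etv1 (-0.09) and Abca9 (-0.164) at P14 against P5, and Abca9 at P60 against P24 (0.061). Without a filter Abca9 at P14 against P5 was -0.009, and with limma-voom Pdgfra at E17 against E13 was 0.128. Sox9 at P60 against P1 was 0.014 with DESeq2 size factors, 0.015 with the Wald test, 0.018 with limma-voom, 0.016 without E13 replicates 1 and 4 and P1 replicate 1, and 0.017 without P24 replicate 2 as well. With 1 library left out, Pdgfra ran from -0.346 to 0.059 at E17 against E13, from -0.139 to 0.022 at P1 against E17 and from -0.001 to 0.122 at P14 against P5. Sox9 ran from -0.003 to 0.115 at P1 against E17 and from -0.186 to 0.101 at P60 against P1, Abca9 from -0.05 to 0.097 at P14 against P5 and from -0.165 to 0.073 at P60 against P24, Etv1 from -0.064 to 0.11 at P24 against P14, and the ratio of Osr2 to Pdgfra from -0.309 to 0.141.

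The labels do not say what libraries of 1 replicate number share, and the sex of each is not labelled. Correlations of the deviations of same-numbered libraries ran from -0.06 to 0.29, and since not every pair was over 0.1 the numbers were not taken as pairs. At P60 against P1, 3 of 4 pairs were over 0.1 and 3 of 4 libraries correlated best with their own number. With the replicate block, the number of the 7 genes called stayed as it was at every step, and the calls over all genes rose at 4 of the 7 comparisons (such as 6303 in place of 6276 at E17 against E13), fell at P14 against P5 (2120 in place of 2127) and at P60 against P1 (6276 in place of 6292), and stayed at 1055 at P60 against P24.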
